A study of Mus musculus with 16 samples.

Results

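The promoters of 10 germline genes, *Dazl*, *Ddx4*, *Sycp1*, *Sycp3*, *Mael*, *Tdrd1*, *Slc25a31*, *Brdt*, *Hormad1* and *Stk31*, were followed in lymphocyte methylomes. The genes were listed by name as autosomal germline genes with promoters silenced by methylation, with earlier results of these data known. They are 10 of 20722 autosomal protein-coding genes in GENCODE vM21 (mm10). A promoter was the 1000 bp centred on the start of the principal transcript, and all 10 passed the filter on calls together with the rest of a set of 19498 promoters. The 16 whole-genome bisulphite sequencing (WGBS) libraries came from spleens of C57BL/6J mice aged 6 to 8 weeks. Of these, 8 were from CD43- resting B cells and 8 from CD4+CD62L+ naive T cells, both enriched by magnetic sorting from pooled animals. Each cell type had 4 female and 4 male libraries, and each sex had 2 libraries with bisulphite (BS) treatment and 2 with oxidative bisulphite (oxBS) treatment. BS reads 5-methylcytosine and 5-hydroxymethylcytosine alike as methylated, whereas oxBS reads only 5-methylcytosine as methylated. No treatment or mutation was involved, and the labels tie no library to a named mouse, so p-values measure the spread between libraries.

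Germline genes are used in the formation of eggs and sperm and are kept silent in most somatic cells. Many of them have CpG-rich promoters, and unlike most promoters of that kind these gain DNA methylation in the embryo around implantation and keep it in somatic tissues. Before and during that time their promoters can be bound by a variant Polycomb complex, PRC1.6, whose subunits MGA and MAX recognise the E-box CACGTG and whose subunit E2F6 recognises the E2F motif TCCCGC.

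The sequences upstream of 6 starts are shown because they hold, or in *Dazl* lack, these motifs. They were read from mm10 in the direction of transcription and end at the base before the annotated start, and capitals mark the E-box or, on either strand, the E2F motif. *Hormad1* is shown over chr3:95559477-95559676 (plus strand), *Sycp3* over chr10:88459369-88459568 (plus strand, within an intron of *Chpt1*), and *Slc25a31* over chr3:40708655-40708854 (plus strand). *Mael* is shown over chr1:166238748-166238997 (minus strand, before the outermost start of the gene, 3 bp upstream of the principal start). *Tdrd1* is shown over chr19:56826009-56826208 (plus strand, before the outermost start of the gene), and *Dazl* over chr17:50293637-50293836 (minus strand).
Hormad1: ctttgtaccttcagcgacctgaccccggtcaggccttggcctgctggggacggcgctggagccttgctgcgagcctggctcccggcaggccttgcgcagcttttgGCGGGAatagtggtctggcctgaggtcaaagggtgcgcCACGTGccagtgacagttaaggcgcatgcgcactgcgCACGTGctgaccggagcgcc
Sycp3: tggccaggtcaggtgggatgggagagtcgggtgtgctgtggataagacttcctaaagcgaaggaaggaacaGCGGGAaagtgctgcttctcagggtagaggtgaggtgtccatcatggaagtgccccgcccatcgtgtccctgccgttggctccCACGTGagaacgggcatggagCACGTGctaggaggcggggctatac
Slc25a31: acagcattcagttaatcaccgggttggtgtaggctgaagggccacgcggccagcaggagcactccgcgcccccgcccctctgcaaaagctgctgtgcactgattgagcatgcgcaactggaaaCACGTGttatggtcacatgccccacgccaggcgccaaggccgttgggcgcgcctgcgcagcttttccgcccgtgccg
Mael: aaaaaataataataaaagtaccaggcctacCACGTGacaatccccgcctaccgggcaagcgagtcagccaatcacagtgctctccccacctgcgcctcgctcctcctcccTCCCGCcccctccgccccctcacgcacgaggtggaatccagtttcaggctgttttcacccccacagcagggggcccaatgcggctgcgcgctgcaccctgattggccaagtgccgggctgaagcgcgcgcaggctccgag
Tdrd1: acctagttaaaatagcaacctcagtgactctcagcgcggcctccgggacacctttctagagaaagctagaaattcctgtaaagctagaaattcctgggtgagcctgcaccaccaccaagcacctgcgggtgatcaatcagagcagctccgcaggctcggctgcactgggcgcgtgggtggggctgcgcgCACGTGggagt
Dazl: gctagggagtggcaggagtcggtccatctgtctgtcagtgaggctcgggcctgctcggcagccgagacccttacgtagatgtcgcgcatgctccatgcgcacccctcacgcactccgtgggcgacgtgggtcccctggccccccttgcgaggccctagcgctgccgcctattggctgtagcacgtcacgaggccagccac

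From 250 bp before to 50 bp after the principal start, CACGTG was present on either strand in 8 of the 10 promoters, against 7.79% of all 20722 promoters and 11% of the 10073 with a CpG observed/expected ratio over 0.6. The ratio compares the number of CpGs with that expected from base content, and promoters over 0.6 are called CpG-dense here. TCCCGC or its complement was present in 6 of the 10, against 25.8% of all promoters and 42.4% of CpG-dense ones. The motifs do not overlap each other by their letters in these windows. CACGTG was missing from the windows of *Dazl* and *Tdrd1*, although in *Tdrd1* it lay 11 bp before the outermost start of the gene, as printed above.

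The libraries listed between 123693203 and 171130063 calls, with a mean of 5.83 to 8.07 calls per autosomal CpG, and 78.4% to 81.5% of autosomal calls were methylated. The promoter windows of the germline genes held 57 to 735 calls per library. Promoter methylation followed the sorted cell type, as 7 of 7 B cell marker genes had lower promoter levels in B cells (median 4.14% in B cells and 75.2% in T cells) and 8 of 8 T cell marker genes had lower levels in T cells (61.5% and 2.74%). Of 7 markers of other blood cells, 3 were called between the cell types, against 8.06% of all promoters. All 3 were higher in B cells, namely *Cd8b1* (88.6% and 20.2%), *Cd8a* (82.5% and 46.4%) and the myeloid marker *Itgam* (48.0% and 32.3%). The myeloid markers *Csf1r* (42.6% and 44.9%) and *Lyz2* (17.8% and 28.2%, over 5 CpGs) were not called.

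At their principal starts, all 10 germline promoters were almost fully methylated in B and T cells. Their mean levels lay between 91.1% (*Tdrd1*) and 96.9% (*Brdt*), with a median of 95.9%, and 153 of the 160 values by gene and library were at 90% or more. The median over all 19498 promoters was 4.35%. At the CpG-rich outermost start of *Tdrd1* the mean was lower, at 75.7%, with library levels from 65.6% to 86.3%. Of single CpGs in the 10 windows, 530 of 539 with at least 10 calls pooled over the libraries were at 80% or more, and none was at 20% or less.

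Among the genes of the meiotic chromosome axis, *Hormad1* encodes a HORMA-domain protein that loads on unsynapsed chromosomes (chr3:95559177-95560176, 47 CpGs). Its level was lowest at 94.1%, median 95.3% and highest at 96.5% over the 8 B cell libraries, and 94.7%, 95.4% and 97.0% over the 8 T cell libraries. *Sycp1* encodes the transverse filament of the synaptonemal complex, which holds paired homologues together (chr3:102935601-102936600, 65 CpGs). Its lowest, median and highest levels were 94.6%, 95.8% and 97.0% in B cells, and 89.8%, 95.1% and 96.2% in T cells. *Sycp3* encodes a lateral element of that complex and starts within *Chpt1*, on the opposite strand (chr10:88459069-88460068, 46 CpGs). It ran from 93.1% over 95.4% to 97.2% in B cells and from 94.1% over 95.0% to 98.4% in T cells. In all 3 genes the ranges of B and T cells overlapped.

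Of the genes of germ granules and the piRNA pathway, which silences transposons in germ cells, *Ddx4* encodes the DEAD-box helicase known as the mouse Vasa homologue (chr13:112651802-112652801, 78 CpGs). It had 94.5%, 96.6% and 98.2% as its lowest, median and highest levels in B cells, and 94.6%, 96.5% and 98.6% in T cells. *Mael*, or Maelstrom, acts in piRNA production (chr1:166238245-166239244, 61 CpGs). Its B cell levels were 91.6%, 93.0% and 94.8%, and its T cell levels 90.3%, 92.3% and 95.2%. *Tdrd1* encodes a Tudor-domain protein of germ granules, and the window of its principal transcript is poor in CpGs (chr19:56830212-56831211, 11 CpGs). With the fewest calls, it also had the widest spread, with 86.8%, 90.9% and 96.5% in B cells and 86.7%, 91.5% and 94.2% in T cells.

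*Dazl* encodes an RNA-binding protein that controls translation in germ cells (chr17:50293137-50294136, 70 CpGs). Its lowest, median and highest levels were 95.0%, 97.2% and 98.0% in B cells, and 92.2%, 95.9% and 98.0% in T cells. *Brdt* encodes a testis bromodomain protein that reads acetylated histones (chr5:107330659-107331658, 41 CpGs). It had 95.0%, 97.2% and 98.3% in B cells, and 95.1%, 96.9% and 98.1% in T cells. *Slc25a31* encodes the germ cell ADP/ATP carrier of mitochondria (chr3:40708355-40709354, 61 CpGs), with 94.3%, 96.3% and 98.5% in B cells and 95.0%, 97.3% and 98.7% in T cells. *Stk31* encodes a germ cell protein with Tudor and kinase domains (chr6:49395104-49396103, 59 CpGs), with 94.3%, 96.7% and 97.3% in B cells and 95.5%, 96.6% and 98.4% in T cells. Again the ranges of the cell types overlapped in each gene.

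**Figure D1:**
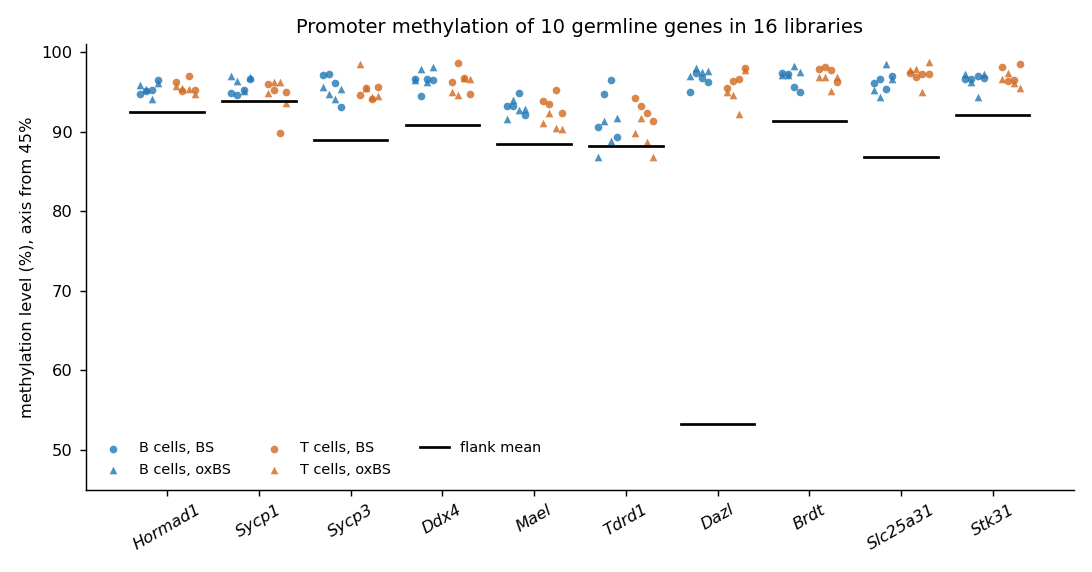
Promoter methylation level (percent, axis from 45%) of the 10 germline genes in each of 16 libraries, with B cells in blue, T cells in orange, BS as circles, oxBS as triangles and the mean level of the flanks as black lines. All 160 points lie between 86.7% and 98.7%, and the flank of *Dazl*, at 53.2%, stands below the others.

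Methylation at 80% or more was rare among CpG-dense promoters. Of 10038 CpG-dense promoters with enough calls, 60 (0.598%) were at 80% or more, and 8 of these belong to the germline genes described here. *Brdt* (ratio 0.535) and *Tdrd1* (0.226) fell below the CpG-dense limit. Among all promoters, 21.7% were at 80% or more, most of them poor in CpGs. *Brd2* and *Brd3*, somatic relatives of *Brdt*, had promoter levels of 0.550% and 0.169%, and *Slc25a4*, the ADP/ATP carrier of heart and muscle, had 2.71% ± 1.08 (SD, n = 16). Promoters of 8 housekeeping genes ranged from 0.242% to 4.13%.

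**Figure D2:**
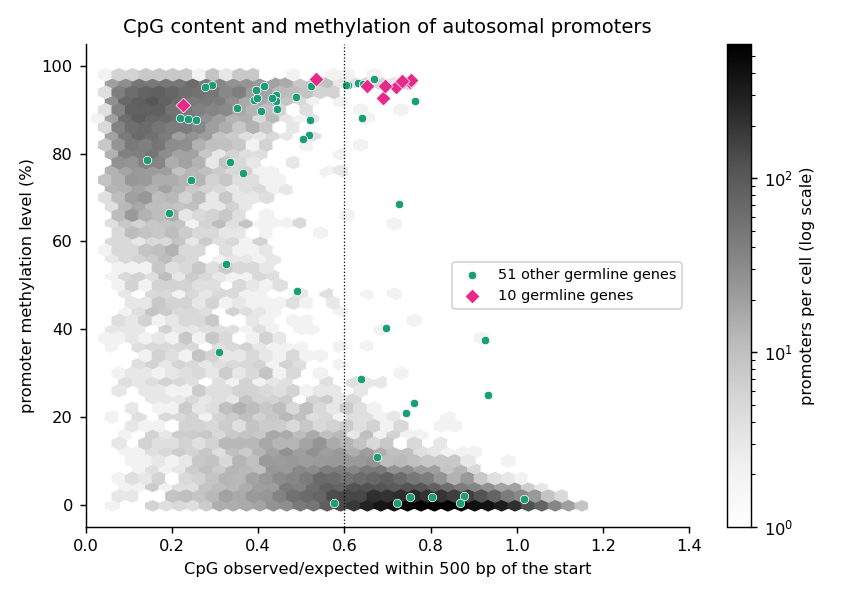
CpG observed/expected ratio within 500 bp of the start (x axis) against promoter methylation level in percent (y axis) for all tested promoters (grey, log colour scale), the 10 germline genes (pink) and 51 other germline genes (green). Right of the dotted line at 0.6 most promoters lie near 0, and 8 of the 10 germline genes lie above 90%.

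The promoters were next compared with their own flanks, from 500 bp to 5 kb on both sides. All 10 were more methylated than their flanks (2-sided exact sign-flip test over 16 libraries, Benjamini-Hochberg adjusted over 19493 promoters). This direction was called for 14.3% of all promoters, while 78.7% were called below their flanks. All tested promoters had a median level of 4.35%, and these shares were not taken among promoters as methylated as the 10. The difference between promoter and flank held in each of the 16 libraries for 8 of the genes. The exceptions were *Sycp1* (15 of 16 libraries, 1.43 points, adjusted exact p = 0.0106) and *Tdrd1* (12 of 16, 2.93 points, adjusted exact p = 0.0062). In *Tdrd1* the upstream flank takes in the CpG-rich outermost start of the gene itself, 4503 bp before the principal start. That flank was at 85.8%, and the downstream flank, at 92.5%, was above the promoter. Apart from *Dazl*, the flanks were themselves at 86.7% (*Slc25a31*) to 93.8% (*Sycp1*), and at these principal starts the largest gain over them was 9.99 ± 3.30 points (SD, n = 16), in *Slc25a31*. With the downstream flank alone 5 of 10 genes were called. *Ddx4* (0.98 points, adjusted exact p = 0.115), *Sycp3* (0.56, p = 0.251) and *Mael* (0.22, p = 0.700) then did not pass, and *Sycp1* (−0.50) and *Tdrd1* (−1.36) changed sign. With the flank from 500 to 2000 bp 6 of 10 were called, without *Ddx4* (1.04 points, adjusted exact p = 0.0891), *Hormad1* (0.64, p = 0.228), *Sycp1* (0.85, p = 0.141) and *Tdrd1*, which changed sign (−0.14). The *Sycp1* call was also lost in BS libraries alone (adjusted exact p = 0.408) and T cell libraries alone (0.192), and that of *Tdrd1* in 5 further settings, among them oxBS libraries alone (0.631) and B cell libraries alone (0.119).

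*Dazl* differed from its flank by 43.1 ± 7.59 points, although with a window of 1000 bp on either side of the start the difference was −25.6 points. The sides of the flank differed. The upstream flank was at 94.6% ± 1.18 and the downstream flank at 12.4% ± 5.14 (SD, n = 16). In the tile 500 to 999 bp downstream of the start (chr17:50292637-50293136, 55 CpGs) the lowest, median and highest levels were 2.73%, 4.46% and 8.30% in B cells, and 1.53%, 2.38% and 7.89% in T cells. Every library was thus below 10% here and above 90% at the start itself. B and T cells did not differ beyond their spread in this tile (1.18 points, 95% interval −1.27 to 3.58, exact permutation p = 0.314). It lies in the body of the gene, in an intron of the principal transcript, and another protein-coding transcript of *Dazl* starts within it, 744 bp downstream of the principal start.

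At single CpGs the change was abrupt. The CpG 488 bp downstream of the start was at 87.5%, the next one, at 507 bp, at 33.7%, and the one at 585 bp at 4.72%. All 49 CpGs from 585 to 1106 bp were at 4.72% or less, with 86 to 124 calls each, whereas the 70 CpGs of the promoter window had a median of 97.2%. The edge is printed below because it holds both motifs, which are absent from 250 bp before to 50 bp after the *Dazl* start. CACGTG lies 526 and 546 bp downstream, with its CpGs at 13% and 10.6%, and TCCCGC or its complement 561 bp downstream, with its CpG at 14.7%. These bounds were chosen after the values had been seen. The sequence covers chr17:50292977-50293216 (mm10, minus strand, 420 to 659 bp downstream of the start), and capitals mark CpGs.
Dazl edge: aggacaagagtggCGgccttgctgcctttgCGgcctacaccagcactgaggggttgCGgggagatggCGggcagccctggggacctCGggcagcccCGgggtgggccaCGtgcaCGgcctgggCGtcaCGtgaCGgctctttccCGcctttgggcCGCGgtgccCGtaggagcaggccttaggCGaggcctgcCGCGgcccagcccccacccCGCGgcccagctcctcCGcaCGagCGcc

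For *Tdrd1* the level depended on which start was used. The principal transcript starts 4503 bp inside the gene, whereas 3 other coding transcripts start near its outermost 5′ end, in a CpG-rich window (chr19:56825709-56826708, 54 CpGs). There the lowest, median and highest levels were 65.6%, 78.0% and 86.3% in B cells, and 69.9%, 72.1% and 80.3% in T cells. The mean of 75.7% ± 6.75 (SD, n = 16) was below that of the other 9 genes. The flanks of this start were lower still, at 44.7%, so that the promoter stood 31.0 points above them in 16 of 16 libraries (adjusted exact p = 3.8e-05), against 2.93 points at the principal start. Libraries varied more around the model than sampling of calls would give, with a dispersion of 10.0 against at most 3.24 for the germline genes at their principal starts, where 1 is binomial variation. The CpG of the E-box printed above was at 46.6% over 118 pooled calls, and the lowest CpG, 28 bp after this start, was at 43.4%. B and T cells were not called different in this window (3.14 points, 95% interval −4.46 to 10.4, adjusted quasi-binomial p = 0.654).

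**Figure D3:**
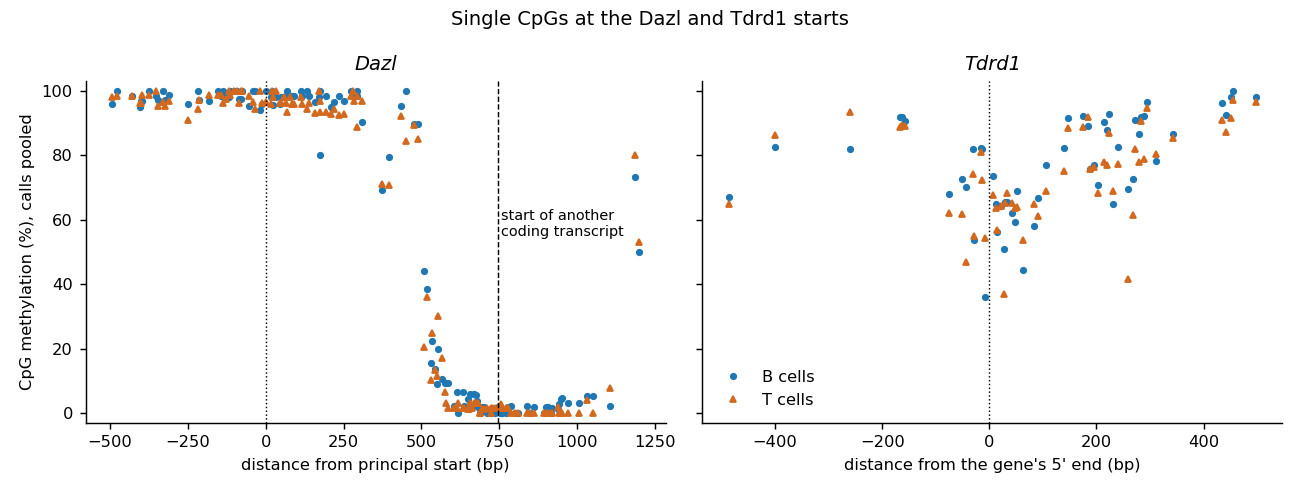
Methylation of single CpGs (percent, calls pooled over the 8 B cell libraries in blue and the 8 T cell libraries in orange) by distance from the principal start of *Dazl* and from the outermost 5′ end of *Tdrd1*. *Dazl* falls from 87.5% to 33.7% between neighbouring CpGs at 488 and 507 bp, and *Tdrd1* dips to 43.4% near its start.

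No germline promoter was called different between B and T cells. In a quasi-binomial model with assay and sex, 0 of 10 passed, at adjusted p-values from 0.313 to 0.970, against 8.06% of the 19498 promoters. At an unadjusted p under 0.05 the count was also 0 of 10, against 4671 of the 19498. It was 0 of 10 with limma and with the exact permutation test as well, where the promoters called between B and T cells numbered 1934 and 1639 in all. The differences ran from −1.03 points in *Slc25a31* (95% interval −2.23 to 0.22) to 1.21 points in *Sycp1* (−0.34 to 2.96), where the intervals invert the exact permutation test. The widest interval, in *Tdrd1*, was from −2.80 to 3.25 points. The library levels of B and T cells overlapped in all 10, and 3.01% of promoters with a value in every library showed no overlap.

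In the tiles of 500 bp within 5 kb of the starts, 4 of 128 tested tiles of these genes were called between B and T cells, against 9.90% of 296568 tiles of all genes. Of 200 tiles these 128 held enough CpGs and calls, and 113 (88.3%) were at 80% or more. The share was 61.0% for the tiles of all genes, and both shares include the tiles at the start. The largest difference was upstream of *Hormad1*, in an intergenic tile from −3000 to −2501 bp (chr3:95556677-95557176, 4 CpGs). Its levels were 75%, 81.2% and 90.0% in B cells and 46.2%, 55.4% and 60.0% in T cells, so the cell types did not overlap (26.9 points, adjusted p = 0.0032, quasi-binomial model). Upstream of *Ddx4*, the tile from −4500 bp (6 CpGs) had 53.1%, 58.1% and 61.5% in B cells and 64.0%, 68.3% and 77.5% in T cells, again without overlap (−11.4 points, adjusted p = 0.0169, quasi-binomial model). The share of tiles without overlap was not taken over the tiles of all genes, so how unusual this is cannot be said. The other 2 overlapped between cell types. They were the *Slc25a31* tile from −4000 bp, higher in B cells by 16.9 points (adjusted p = 0.0267), and the *Ddx4* tile from 3500 bp, higher in T cells by 5.05 points (adjusted p = 0.0165). The *Ddx4* call at −4500 bp was lost with limma (adjusted p = 0.0678). The *Slc25a31* call was lost without B cell female BS library 10 (adjusted p = 0.0820), T cell female BS library 15 (0.0589) or T cell female oxBS library 14 (0.0861), and the *Ddx4* call at 3500 bp without B cell male BS library 4 (0.0622), with CpGs of at least 5 calls alone (0.0604) or where a difference of 10 points was required.

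Each gene also had a lowest tile. Besides *Dazl*, the lowest levels were those of *Sycp3* at −1500 bp (58.2%, 3 CpGs, within *Chpt1*), *Slc25a31* at −4000 bp (59.8%), *Ddx4* at −4500 bp (64.0%), *Mael* at −5000 bp (67.3%), *Hormad1* at −3000 bp (67.5%), *Brdt* at 1500 bp (71.2%), *Tdrd1* at −5000 bp (74.5%), *Stk31* at 3000 bp (74.7%) and *Sycp1* at −4500 bp (79.8%, in an exon of *Nr1h5*). All of these lay at least 1000 bp from the principal start, but that of *Tdrd1* reaches the outermost start of the gene. The highest tiles lay between 96.3% in *Tdrd1* and 98.2% in *Ddx4*, and those of *Dazl*, *Slc25a31*, *Brdt* and *Stk31* adjoined the start, with 97.7% in *Dazl* over the 500 bp before it. In the 500 bp after the start, the median of the 10 genes was 96.0% in B cells and 95.8% in T cells, against 0.496% and 0.182% over CpG-dense promoters. Far from the start the medians were alike. They were 92.8% and 92.2% at −5000 bp, against 92.9% and 92.2%, and 93.9% and 94.1% at 4500 bp, against 94.4% and 92.9%.

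**Figure D4:**
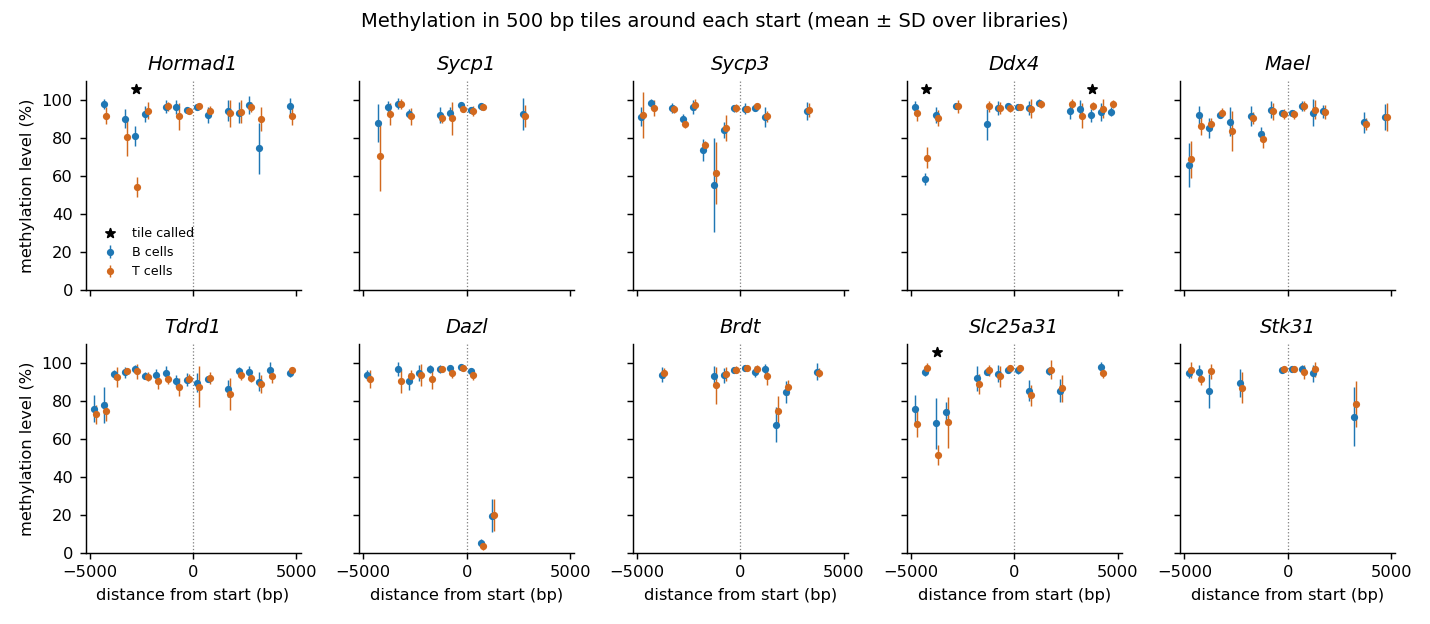
Methylation level (percent, mean ± SD over libraries) in 500 bp tiles by distance from the principal start of each gene, for B cells (blue) and T cells (orange), with stars over called tiles and only tested tiles drawn. Levels stay high across the dotted start in all 10 genes, *Dazl* falls to 4.38% just downstream, and stars stand over 4 tiles of *Hormad1*, *Ddx4* and *Slc25a31*.

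BS and oxBS levels were close at these promoters. None of the 10 was called, against 0% of the 19498 promoters, of which 1205, with 1 of the 10 among them, had an unadjusted p under 0.05 (quasi-binomial model). The difference of BS minus oxBS was largest in *Tdrd1*, at 3.30 points (95% interval 0.95 to 5.65, adjusted p = 0.804), and in *Mael*, at 1.61 points (0.36 to 2.86, adjusted p = 0.785). These were the only intervals that lay above 0, and before adjustment their exact permutation p-values were 0.0110 and 0.0196. In the other 8 genes the difference lay between −1.11 points (*Sycp1*) and 0.72 points (*Stk31*). With a window of 250 bp on either side of the start the difference in *Tdrd1* was 5.57 points, and at its outermost start −1.01 points (−8.51 to 6.49). A dependence of the assay difference on cell type was not called in any of the 10 (interaction, adjusted p-values from 0.613 to 0.979, with 1 of the 10 at an unadjusted p under 0.05), nor at any other promoter (0%, with 1564 at an unadjusted p under 0.05). In B and T cells taken singly, the difference was 0.55 and 2.66 points in *Mael*, −1.17 and 1.73 points in *Dazl*, −1.22 and 1.09 points in *Brdt*, and −1.14 and 0.83 points in *Ddx4*. It was also higher in T cells in *Tdrd1* (3.09 and 3.52), *Stk31* (0.46 and 0.97) and *Hormad1* (0.09 and 0.54). The reverse was seen in *Sycp3* (0.95 and −0.73), *Slc25a31* (0.09 and −0.16) and *Sycp1* (−0.99 and −1.22).

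Female and male libraries were not called different at any of the 10 promoters, at adjusted p-values from 0.935 to 0.994, against 0% of all promoters, and 0 of the 10 and 974 of all promoters were at an unadjusted p under 0.05 (quasi-binomial model). *Sycp3* had the largest difference, female minus male 1.44 points (95% interval 0.19 to 2.74). Its exact permutation p, which goes with this interval, was 0.0284 before adjustment.

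Within the methylated promoters, the CpG inside the E-box was less methylated than its surroundings. This was examined after the levels had been seen and is given as a description. In 10 of 10 E-boxes of 8 germline promoters, that CpG was below the median CpG of the same 1000 bp window, at 81.0% to 95.6%, by a median of 6.62 points. In *Hormad1* the E-boxes at −57 and −20 bp were at 85.3% and 85.8%, against a window median of 96.7%, and only 1 and 2 of the 47 CpGs were lower. The rank was weakest in *Stk31*, at 95.6% against 97.6%, where 13 of 59 CpGs were lower, followed by the *Sycp3* E-box at −25 bp with 6 of 46 and *Sycp1* with 7 of 65. In *Sycp3* they were at 88.8% and 93.2% (median 95.6%), in *Ddx4* at 88.3% (96.9%) and in *Mael* at 81.0% (95.0%). The CpGs inside the E2F motifs did not share this, as 2 of 7 were below the median of their window. The same held outside these genes. Among other promoters at 80% or more, 147 of 169 E-box CpGs (87.0%) and 96 of 213 E2F motif CpGs (45.1%) were below the median of their window. The E-box values rest on 77 to 147 pooled calls each.

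**Figure D5:**
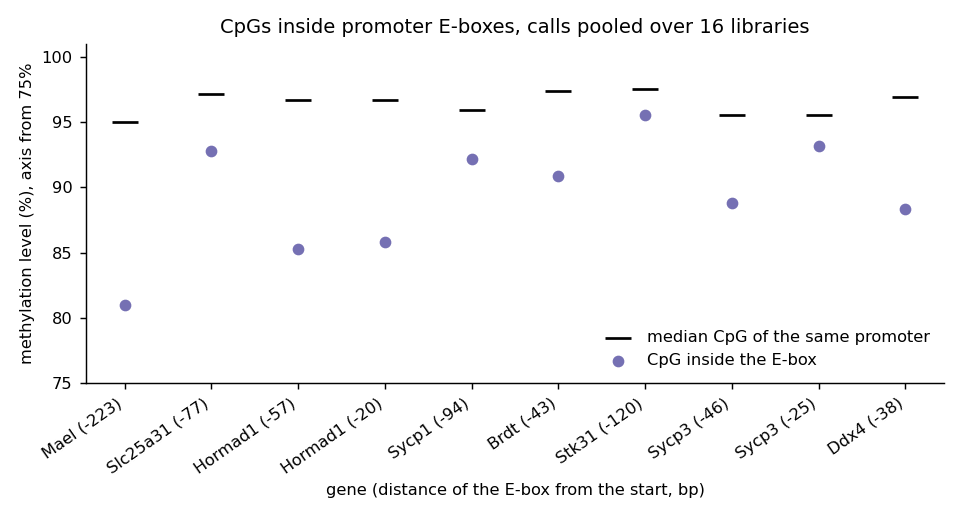
Methylation (percent, axis from 75%, calls pooled over 16 libraries) of the CpG inside each of 10 promoter E-boxes (purple points) and the median CpG of the same promoter (black bars), labelled by gene and distance from the start in bp. Every point lies below its bar, by the most in *Mael*, at 81.0% against 95.0%.

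Other germline genes were more mixed, but they were listed by role, whereas the 10 were listed as silenced by methylation. Of 51 measured, 28 were at 80% or more, 15 between 20 and 80%, and 8 at 20% or less. By role, 5 of 10 synaptonemal complex and axis genes, 3 of 8 recombination genes, 9 of 14 piRNA and germ granule genes, 5 of 11 RNA-binding and transcription factors and 6 of 8 spermatid and testis genes were at 80% or more. The highest were *Tex12*, of the synaptonemal complex (97.1%), *Spo11*, which makes meiotic double-strand breaks (96.1%), and *Msh4*, of crossover formation (95.8%). The lowest were *Msh5*, the partner of *Msh4* (0.394%), *Mei4*, a cofactor of *Spo11* (0.427%), and *Ybx2*, a germ cell RNA-binding protein (0.470%). Of the 21 that were CpG-dense, 7 were at 80% or more. Promoters above their flanks numbered 22 of 51 and those below 24, against the 14.3% and 78.7% of all promoters.

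Between B and T cells, 4 of the 51 were called, against the 8.06% of all promoters. *Tnp2*, a transition protein of sperm chromatin, was at 55.9% in B cells and 13.7% in T cells, *Nanos3* at 76.7% and 56.5%, and *Nobox* at 79.6% and 71.6%, while *Prm1*, a protamine, was higher in T cells, at 71.8% and 84.3%. None of these 4 was CpG-dense. The profile over 20 tiles and both cell types was most like the median of the 10 germline genes in *Rpl10l*, *Pnldc1*, *Mcts2*, *Hist1h2aa* and *Hsf5*, with root mean square differences of 3.68 to 4.15 points, among 9990 other CpG-dense promoters. The 10 genes themselves stood 5.34 (*Sycp1*) to 35.3 points (*Dazl*) from that median.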

How the data were processed

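Methylation was analysed in 16 WGBS libraries of sorted B and T cells. The authors trimmed reads with Trim Galore 0.6.0, mapped them to mm10 with Bismark 0.20.0, used SAMtools 1.3.1 and kept alignments with a MAPQ of at least 10. They deposited counts of unmethylated and methylated calls per CpG with strands combined, not normalised. Listed positions that are not reference CpGs were left out.

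Starts were those of GENCODE vM21 principal transcripts. Calls were pooled per library over 500 bp on either side of each start, over flanks to 5 kb and over 20 tiles of 500 bp. A library needed 10 calls, a window 3 CpGs and 6 of 8 libraries per cell type and assay. Cell type, assay and sex were tested in a quasi-binomial logistic model (dispersion at least 1, F test), and promoters against flanks by an exact sign-flip test over libraries. P-values were Benjamini-Hochberg adjusted over all windows of autosomal protein-coding genes, with calls at 0.05. Intervals at 95% inverted the exact permutation test of library levels, whose smallest p is 0.000155 with 8 against 8 libraries. Pooled CpG levels carry counting error that was not given an interval. Scripts were tested on simulated data.

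Named genes were the 10 germline genes, in each the lowest and highest tile, the 3 highest and 3 lowest and any called of the other germline genes, somatic relatives (not all are reported here) and the 5 most alike promoters. The genes and lists were chosen with earlier results of these data known. Alternatives covered the start, windows, flanks, minimums, tests, library subsets and each library left out. Python 3.11.15, NumPy 2.4.6, SciPy 1.17.1, pandas 2.3.3, Matplotlib 3.10.9 and limma 3.58.1 in R 4.3.3 were used.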

Additional observations from a re-analysis of the deposited data

Results flagged for a closer look

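In 20 germline promoter groups and 4 further groups of 8 libraries each, 3 held a library far from the other 7, where chance gives about 1 in 20. *Sycp1* was at 89.8% in T cell male BS library 5, with the next at 93.6%. *Sycp3* was at 98.4% in T cell female oxBS library 14, with the next at 95.6%. *Stk31* was at 94.3% in B cell male oxBS library 2, with the next at 96.2%. The causes were not tested.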

How the results depend on the processing

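No paired analysis was possible because the library numbers run from 1 to 16 without repeats. The counts of promoters called between cell types, assays and sexes and for the interaction stayed at 0 of 10 under every alternative run, including each library left out. The median level of the germline promoters was 95.1% with windows of 1000 bp on either side. Promoters above their flanks numbered 10 of 10, but 6 with a flank of 500 to 2000 bp and 5 with the downstream flank alone, and 10 throughout when single libraries were left out. They numbered 9 with windows of 250 or 1000 bp on either side, BS, oxBS or B cell libraries alone or the mean of CpG fractions, and 8 with T cell libraries alone. The calls lost there, besides that of *Dazl*, were those of *Sycp1* (BS libraries, p = 0.408, and T cell libraries, 0.192) and of *Tdrd1* (250 bp, 0.783, oxBS, 0.631, B cell, 0.119, and T cell libraries, 0.0521, and the mean of CpG fractions, 0.0560), all adjusted and exact. Called tiles numbered 4, but 7 with limma, which dropped the *Ddx4* tile at −4500 bp, and 3 to 5 without single libraries, while those of all genes ran from 22862 to 35600. Promoters called between B and T cells ran from 87 with male libraries alone to 2204 with windows of 1000 bp on either side. Directions turned for *Tdrd1* BS minus oxBS at the outermost start (−1.01 points), *Dazl* promoter minus flank with windows of 1000 bp on either side (−25.6), *Tdrd1* promoter minus flank with the flank of 500 to 2000 bp (−0.14) or downstream alone (−1.36), and *Sycp1* with the downstream flank alone (−0.50). In *Dazl* the wider window took in the unmethylated tile from 500 to 999 bp, and the flank then began beyond that tile. Both *Tdrd1* flanks named here leave out the outermost start of that gene, which the full flank takes in. The causes of the changes outside *Dazl* were not tested. With 5.83 to 8.07 calls per CpG and library, single CpGs could be read only from pooled libraries.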
